A study of Homo sapiens with 56 samples.

Results

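Genes of homologous recombination and the Fanconi anaemia pathway were followed in 28 established ovarian cancer cell lines. The 40 genes were chosen by function, and 35 of them were read from a probe set annotated to that gene alone, out of 18377 genes measured in this way. BRCA2, FANCA, FANCD2 and RBBP8 had no such probe set and were not analysed here, and the probe set of RAD51D is shared with a read-through gene and was not used. Total RNA of untreated cells was hybridised in duplicate, 2 Human Gene ST arrays (Affymetrix) per line, and the values are log2 intensities.

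The lines differ in culture medium and serum. CAOV3, CH1, DOV13, OAW28, OAW42, OVCA420, OVCA432, OVCA433, SKOV3 and TYKNU were grown in DMEM, and A2780, COLO720E, EFO21, HEY, HEYC2, OVCAR2, OVCAR3, OVCAR5 and PEO1 in RPMI. FUOV1, JHOS2, JHOS3, JHOS4, OV17R, OV56 and OV7 were grown in DMEM/F12, TOV112D in MCDB105/M199 and UWB1.289 in RPMI/MEGM. Serum was 20% for EFO21 and OVCAR3, 5% for OV17R, OV56 and OV7, 3% for UWB1.289 and 10% for the others, and its part in the values of these lines was not tested. Each line stands for 1 tumour or a derivative of it, and HEYC2 shares its name with HEY. UWB1.289 and PEO1 are known as models of BRCA1 and BRCA2 deficiency, respectively. The epithelial keratin KRT8 lay between 9.01 and 13.74 in all lines and KRT18 between 9.18 and 13.28. EPCAM, KRT7, KRT19 and CDH1 fell to 4.31 (HEYC2), 5.94 (OAW42), 6.40 (HEYC2) and 3.88 (SKOV3). The leukocyte marker PTPRC lay between 2.80 and 3.63, but CD14 reached 7.90 in CAOV3 and CD68 10.73 in TYKNU. The Mullerian factor PAX8 ranged from 6.29 in CAOV3 to 10.95 in OVCA432. The endothelial markers PECAM1, CDH5, KDR and TEK had their highest values in TYKNU, and VWF had its highest in OV17R (5.71). The labels do not say whether duplicates were separate cultures, so tests against the spread between arrays may measure technical spread only.

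Homologous recombination mends double-strand breaks by copying the sister chromatid. The MRE11, RAD50 and NBN complex and EXO1 trim the broken end, BRCA1 and BARD1 with PALB2 and BRCA2 prepare it for strand exchange, and RAD51B, RAD51C, XRCC2, XRCC3 and the RAD54 proteins act while the matching strand is found and invaded. The Fanconi core complex, which FANCM and other subunits bring to crosslinked DNA, marks FANCI and FANCD2 so that the crosslink can be cut out. TP53BP1 and RIF1 hold back end resection, while PARP1, PARP2 and POLQ serve other routes of break repair. Ovarian cancer is the tumour in which loss of this pathway is best known, since it sets the response to platinum and to PARP inhibitors.

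Promoter sequence of 31 of the 35 genes was at hand from RefSeq (GRCh38.p14, 250 bases before to 50 after the start). E2F-type letters (TTTCGCGC, TTTGGCGC, TTTCCCGC or TTTGCCGC on either strand) were found in 3 of these 31 promoters (9.68%) and in 3.31% of 35116 promoters. They are shown because EXO1 and XRCC2, which varied together below, both hold them, as does FANCC, which did not vary with either. The windows are written on the strand of the gene, with the matched letters in capitals.
XRCC2, chr7:152676103-152676130, minus strand: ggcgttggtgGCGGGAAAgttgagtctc
EXO1, chr1:241848198-241848225, plus strand: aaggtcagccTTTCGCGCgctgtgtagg
FANCC, chr9:95317864-95317891, minus strand: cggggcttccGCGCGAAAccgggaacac
FANCC, chr9:95317738-95317765, minus strand: tcgtcggaatTTTCCCGCgacgccgcgg
The CCAAT box was present in 13 of the 31 promoters (41.9%, against 34.6% of all promoters), and the cell-cycle element TTTGAA or TTCGAA in 6 (19.4%, against 16.4%). These matches are descriptions of letters and name no bound factor.

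Before any comparison, 3 arrays stood apart, and they weigh heavily on this pathway. On HEYC2 replicate 1, OV56 replicate 2 and OVCA420 replicate 1, the median difference of the 35 genes from the duplicate array of the same line was -2.11, -1.79 and -2.69 log2 units, and 32, 31 and 31 of the 35 genes lay below it. In the other 25 lines this median difference stayed between -0.28 and 0.50. Of all 18377 genes, 7246, 7800 and 7208 lay below the duplicate on the 3 arrays, in the same order. On all 3 arrays, 25 of the 35 genes were lower than on every one of the other 53 arrays. Taken 1 array at a time, this held for 27, 26 and 28 of the 35 genes, beside 3962, 3678 and 4280 of all 18377. BRCA1 shows the size of the gap, with 5.61 and 8.71 on the arrays of HEYC2, 7.72 and 5.26 on those of OV56, and 4.43 and 8.60 on those of OVCA420. ATR, the kinase that answers stalled forks, read 3.91 and 7.74 in OVCA420. The median of all genes was instead higher on these arrays than on the duplicates, by 0.42, 0.28 and 0.51, and the median difference over 22 mitosis genes was -2.84, -2.32 and -2.82. The spread of values over genes was also narrower on the 3 arrays (SD 1.57 to 1.68, against 1.91 to 2.09). What sets these arrays apart was not tested. Results are therefore given with all 56 arrays and with the 53 others.

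**Figure D1:**
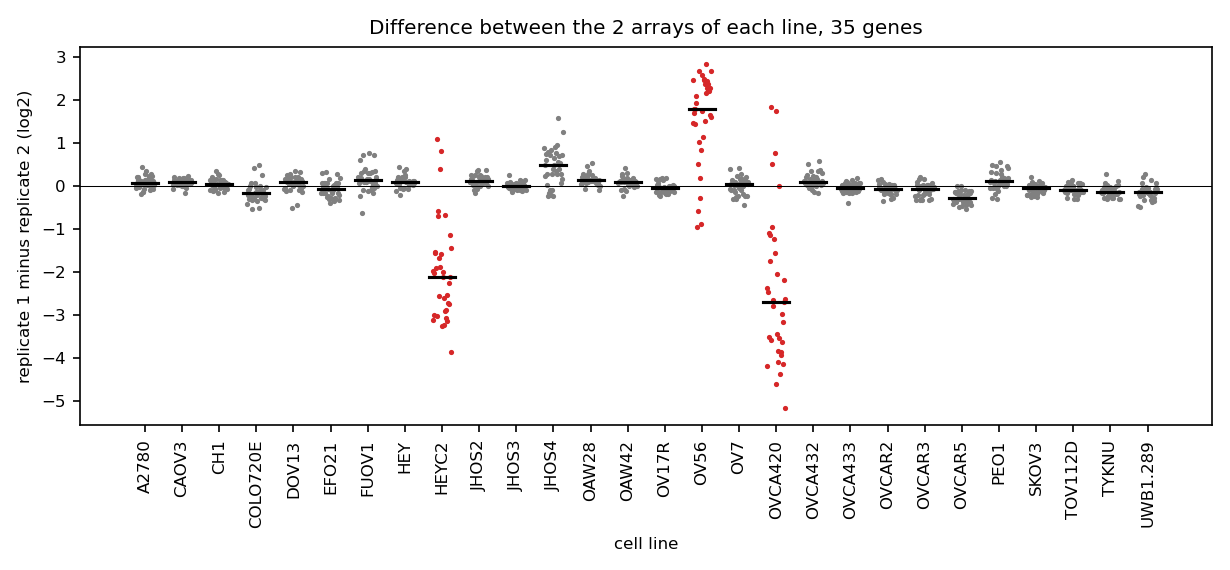
Difference between replicate 1 and replicate 2 of each line (log2) for the 35 genes, each point a gene and each black bar the median. In HEYC2, OV56 and OVCA420 (red) the low array minus its duplicate has a median of -2.11, -1.79 and -2.69, with OV56 drawn on the upper side because its second array is the low one, and the other 25 medians lie between -0.28 and 0.50.

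The 35 genes differed among the lines far more than between duplicates once these arrays were set aside. With 56 arrays, 22 of 35 passed the limma F-test over 28 lines at an adjusted p under 0.05, beside 65.7% of all genes, and with 53 arrays 35 of 35 passed, beside 80.7%. The 3 arrays lay far from their duplicates in these same genes, so leaving them out by itself lowers the spread that the test divides by. For BRCA1 the SD between duplicates went from 0.787 to 0.18. The rise from 22 to 35 is therefore no separate result. The median SD over line means was 0.503 for the 35 genes and 0.381 for all genes with 53 arrays, against a median SD between duplicates of 0.159 and 0.151. FANCF varied most (SD 0.82), followed by XRCC2 (0.70), CHEK2 (0.68), BRCA1 (0.66), BRIP1 (0.59) and RAD51C (0.59). With 56 arrays the order was FANCF (0.86), XRCC2 (0.83), RAD50 (0.79), PARP1 (0.73), PARP2 (0.72), CHEK2 (0.71) and BRCA1 (0.70). RAD54L, a motor protein of strand exchange, varied least with 53 arrays (SD 0.26, range 6.67 to 7.65), next to XRCC3 (SD 0.27, range 6.93 to 8.04).

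**Figure D2:**
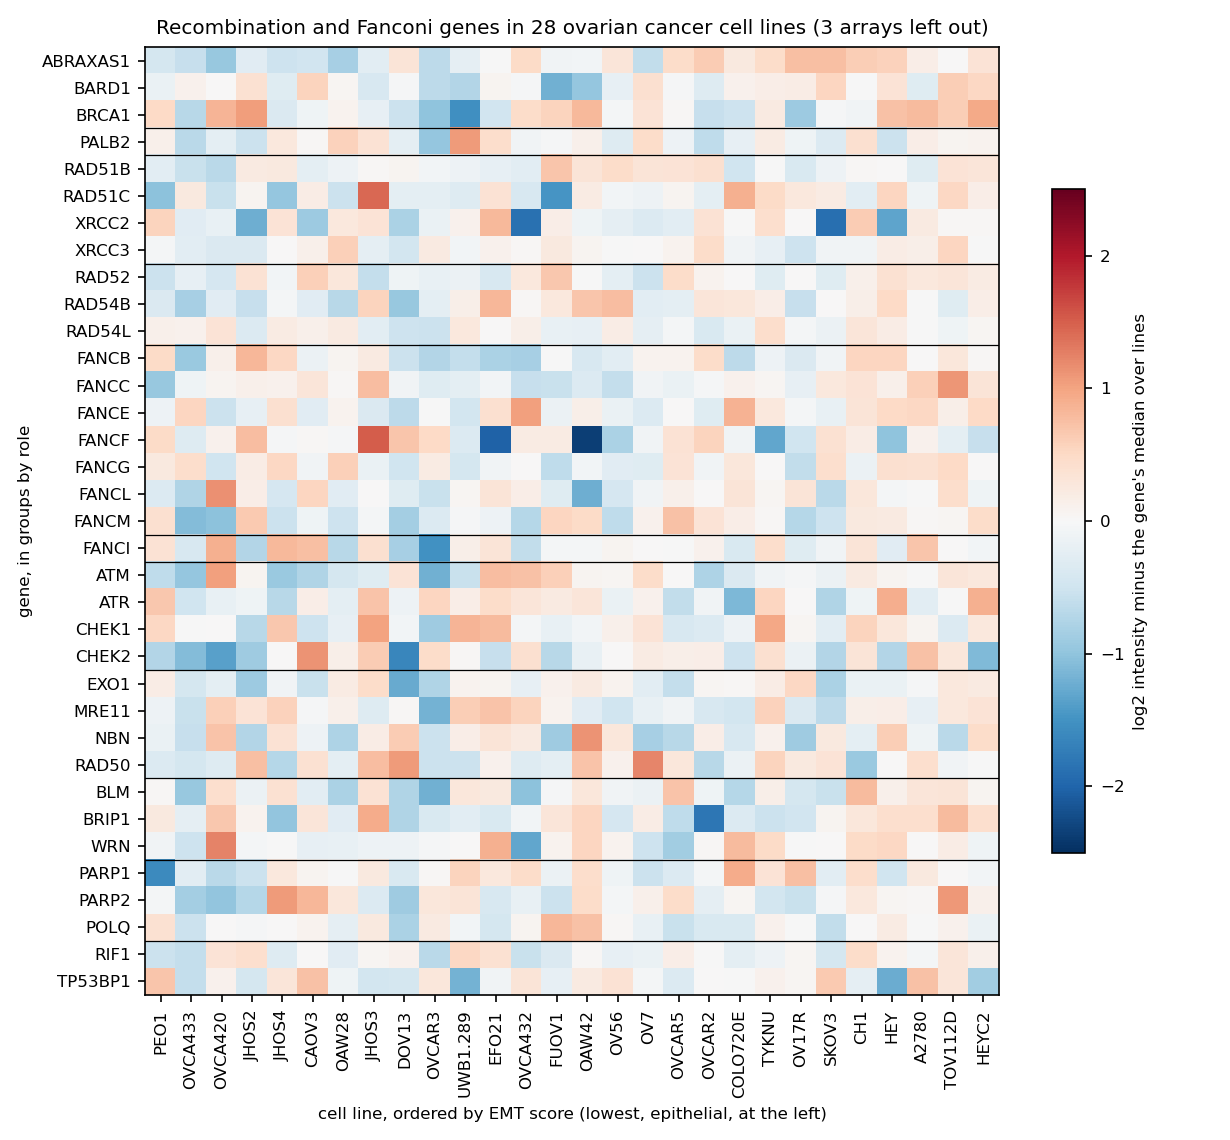
Line means of the 35 genes (rows, in groups by role) in the 28 lines (columns, by EMT score from the most epithelial at the left), as log2 intensity minus the median of the gene over lines, with 3 arrays left out. FANCF in OAW42 and EFO21, XRCC2 in SKOV3 and OVCA432, and BRIP1 in OVCAR2 are the deepest blue, and most genes show no run of one colour from left to right.

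Low values in single lines were looked for next, because loss of 1 gene is how this pathway is usually broken in ovarian tumours. No gene passed the test against the spread among lines. In simulated data this test found 8% of single-line lows of 1 log2 unit, 38% of 2 and 80% of 3. The lows were planted in genes drawn from all 18377. With 53 arrays the median SD over line means was 0.381 for all genes and 0.503 for the 35. A wider spread makes a low harder to call. A count of 0 therefore does not show that such lows are absent. Of 980 pairs of gene and line, limma on line means called 0 low and 0 high at an adjusted p under 0.05 and 1 log2 unit, where the share over all genes was 0.0583% low and 0.215% high. With 53 arrays the count was again 0, beside 0.0385% and 0.263%. At an unadjusted p under 0.05, 39 pairs were low and 7 high with 56 arrays (1.27% and 1.65% of all pairs), and 22 and 12 with 53 (0.829% and 1.63%). The smallest adjusted p of the 35 genes was 0.115 by limma, and 0.0962 with 53 arrays, for PARP1 in PEO1. The lows below are therefore described by their arrays, and the genes and lines were chosen after their values had been seen.

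Against the spread between arrays some pairs were called, with 53 arrays no more often than over all genes. In a limma fit of the 53 arrays, 29 of the 980 pairs were low (3.19% over all genes and lines) and 16 were high (3.93%), in 20 and 14 genes. With 56 arrays the counts were 40 (3.48%) and 12 (3.79%), and 28 of the 40 lows lay in OVCA420, OV56 and HEYC2. Among the 53 arrays, the lowest line of 16 of 35 genes lay under every array of the other 27 lines on all of its own arrays, beside 24.1% of all genes, and in 12 of these the line was also at least 1 log2 unit under the median, beside 13.0%. A highest line stood alone in the same way in 14 of 35 genes, beside 42.6% of all genes.

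Among genes of end recognition and loading, BRCA1 ranged from 6.22 in UWB1.289 through a median of 7.76 to 8.80 in JHOS2. The UWB1.289 arrays read 5.99 and 6.45, below all other arrays of the 53, and the line minus the mean of the other lines was -1.63 log2 units (SE 0.59 among lines, adjusted p = 0.571, limma with 53 arrays). OVCAR3 came next, with 6.65 and 6.87. PEO1 stood at 8.31 and 8.22, in the upper part of the range of BRCA1. BARD1, the partner of BRCA1, was lowest in FUOV1 (6.69 and 6.91), 1.20 under the median of lines. PALB2, which bridges BRCA1 to BRCA2, had its highest value in UWB1.289 (8.72 and 8.85), the line with the lowest BRCA1, and its next highest line, OAW28, was at 8.31. BRIP1, a helicase that binds BRCA1, was lowest in OVCAR2, with 6.20 and 6.26 against a median of 8.05. The next line, JHOS4, was 0.83 above it.

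RAD51C and XRCC2 had extremes at both ends. RAD51C ranged from 6.60 in FUOV1 (6.29 and 6.91) to 9.51 in JHOS3 (9.55 and 9.46), with a median of 8.08. XRCC2 was low in SKOV3 (6.31 and 6.57) and OVCA432 (6.73 and 6.21) and highest in EFO21 (9.19 and 9.12), around a median of 8.33. The arrays of SKOV3 and OVCA432 overlap, so these lows do not differ from each other beyond their duplicates. RAD51B spanned 6.43 to 7.80 and XRCC3 6.93 to 8.04. Among strand exchange factors, RAD52 spanned 7.15 to 8.43 and RAD54B 6.27 to 8.05, with no line alone at the low end of either.

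The Fanconi core subunit FANCF had the widest range of the 35 genes, from 4.95 in OAW42 to 8.83 in JHOS3 around a median of 7.31. Its arrays read 5.10 and 4.80 in OAW42, 5.14 and 5.44 in EFO21, and 5.99 and 6.05 in TYKNU, and those of JHOS3 read 8.80 and 8.87. OAW42, EFO21 and TYKNU did not overlap with each other or with any other line of the 53 arrays. OAW42 minus the mean of the other lines was -2.31 (SE 0.69 among lines, adjusted p = 0.274, limma with 53 arrays). FANCF is known as a core subunit that is silenced by promoter methylation in some ovarian tumours; methylation was not analysed here. FANCL, the ubiquitin ligase of the complex, was also lowest in OAW42 (6.74 and 6.69, median 7.94). FANCC was lowest in PEO1 (6.53) and highest in TOV112D (8.57). FANCE spanned 6.63 to 8.31, FANCG 7.06 to 8.28, FANCB 5.77 to 7.53 and FANCM 5.67 to 7.47. FANCI, which the core complex marks together with FANCD2, was lowest in OVCAR3 (7.90 and 7.99), 0.68 under the next line and 1.52 under the median.

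Of the checkpoint kinases, CHEK2 ranged from 5.71 in DOV13 (5.50 and 5.93) to 8.47 in CAOV3 (8.39 and 8.54), with a median of 7.35. OVCA420 came next, 0.29 above DOV13 by its second array, and its first array, set aside elsewhere, read 5.99. ATR was lowest in COLO720E (7.04 and 6.56), and HEY (8.88 and 8.78) and the array left of HEYC2 (8.81) were highest. ATM was lowest in OVCAR3 (6.66) and CHEK1 in the same line (8.66). In end resection, MRE11 was lowest in OVCAR3 (6.32 and 6.64, median 7.66) and EXO1 in DOV13 (8.09 and 8.07, median 9.34). NBN was highest in OAW42 (10.08 and 9.99) and RAD50 in OV7 (9.68 and 10.12). The helicase WRN was lowest in OVCA432 (6.11 and 5.73, median 7.23) and BLM in OVCAR3 (6.72 and 6.73, median 7.91).

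PARP1, the enzyme that PARP inhibitors trap on DNA, was lowest in PEO1, at 8.56 and 8.55 against a median of 10.15, and the next line was 0.93 higher. PEO1 minus the mean of the other lines was -1.64 (SE 0.41 among lines). PARP2 spanned 8.21 to 10.27 and POLQ 6.54 to 8.17. TP53BP1 was lowest in HEY (6.72 and 6.65) and UWB1.289 (6.76 and 6.69), whose arrays overlap, and the array left of HEYC2 followed at 7.05 (median 7.91). RIF1 had a range of 1.20 with 53 arrays, and its lowest line with 56 arrays, OVCA420 at 7.29, rested on the array that stood apart.

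**Figure D3:**
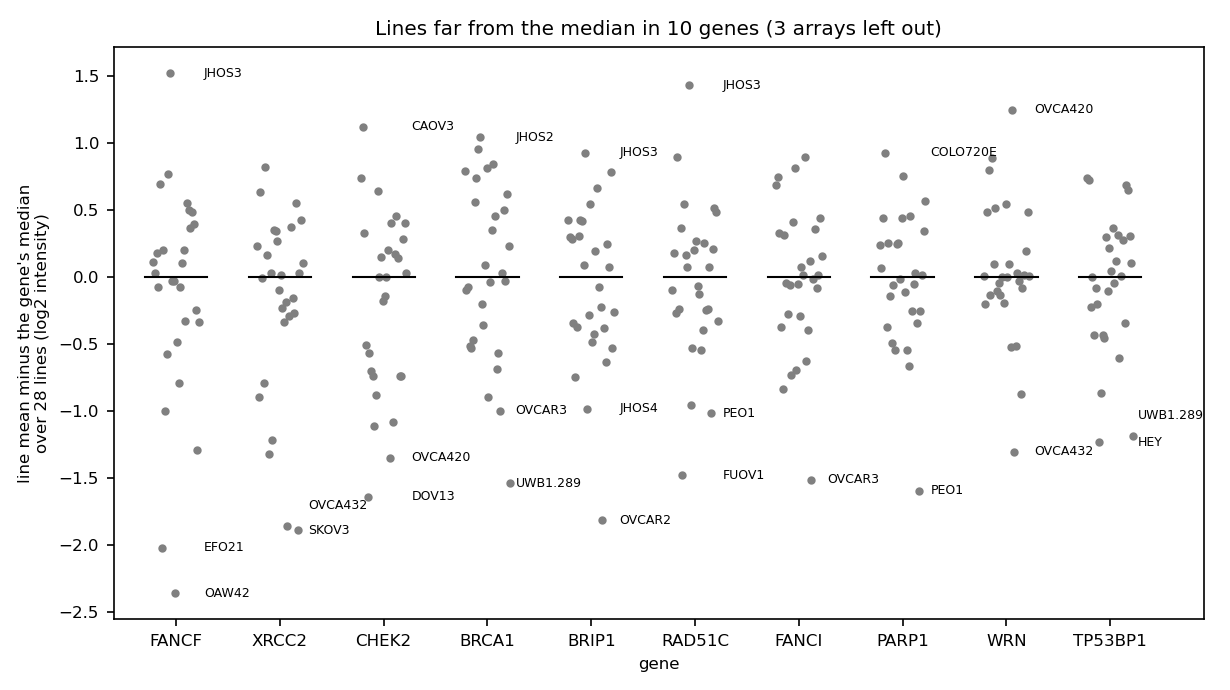
Line means of 10 genes with wide ranges or a lone low line, as log2 intensity minus the median of the gene over 28 lines (black bars), with 3 arrays left out; each point is a line and the extreme lines are named. OAW42 and EFO21 for FANCF, OVCAR2 for BRIP1 and PEO1 for PARP1 lie apart below, and JHOS3 lies apart above for FANCF and RAD51C.

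With 53 arrays OVCAR3 had more lows than any other line. In the fit of 53 arrays 6 of the 35 genes were low there (FANCI, MRE11, ATM, BLM, BRCA1 and CHEK1), beside 4.22% of all genes, and it was the lowest line for 8 genes. The next lines by this fit had 2 lows each. The median of the 35 genes minus the line medians was -0.34 log2 units in OVCAR3, -0.37 in DOV13 and -0.52 in OVCA433, where 30 of 35 genes were under their median. OVCAR3 and DOV13 also had low mitosis scores (-0.46 each, with 53 arrays), and OVCA433 had -0.24. OVCA420, with the lowest score of all lines (-0.66, from the 1 array left), and OVCA432 (-0.31) had a median of the 35 genes at 0.00 and 0.01. The part of the score in the lows was not tested. In a bulk sample, less RNA per cell and fewer cells that make it cannot be told apart. At the other end, JHOS3 was the highest line for 4 genes, RAD51C and FANCF among them. OVCA420 was also the highest line for 4 genes (FANCI, FANCL, ATM and WRN), by the 1 array left. TOV112D was under the median for 7 of 35 genes.

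The relation to epithelial-mesenchymal transition (EMT) was read with a score for each line, the signed Kolmogorov-Smirnov statistic between 200 mesenchymal and 182 epithelial signature genes. It is positive in mesenchymal lines, and none of the 35 genes is in the signature. ABRAXAS1, which ties BRCA1 to ubiquitin chains at breaks, was the one gene of the 35 that passed the test, and it rose with the score. Spearman's rho was 0.679 over 28 lines (permutation test, p = 1e-04, adjusted p = 0.0211 over 18377 genes) and Pearson's r was 0.673 (permutation p = 0.00011). With 53 arrays rho was 0.722 (jackknife SE 0.08, permutation p = 4e-05, adjusted p = 0.0102) and r was 0.733. Over all genes, 0.136% rose and 0.68% fell with the score at this threshold, and 0.256% and 0.773% with 53 arrays. By limma, ABRAXAS1 rose by 0.78 log2 units for each unit of the score (SE 0.14, 53 arrays). Without the 2 lines farthest from the median score, r stayed at 0.73, but with 56 arrays rho was then 0.694 with an adjusted p of 0.054 by permutation.

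ABRAXAS1 values were modest in range. PEO1, the most epithelial line by score (-0.85), read 5.59 and 5.86, and OVCA433 (-0.63) read 5.51 and 5.68. SKOV3 (0.50) read 6.93 and 6.91, and HEY (0.63) read 6.85 and 6.64. These groups of arrays do not overlap. OV7 (score 0.16) with 5.60 and 5.47, and DOV13 (score -0.39) with 6.55 and 6.42, ran against the trend. Within media, rho was 0.867 over 10 DMEM lines, 0.550 over 9 RPMI lines and 0.429 over 7 DMEM/F12 lines (53 arrays), all of one sign. The tests were run over 28 lines only.

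**Figure D4:**
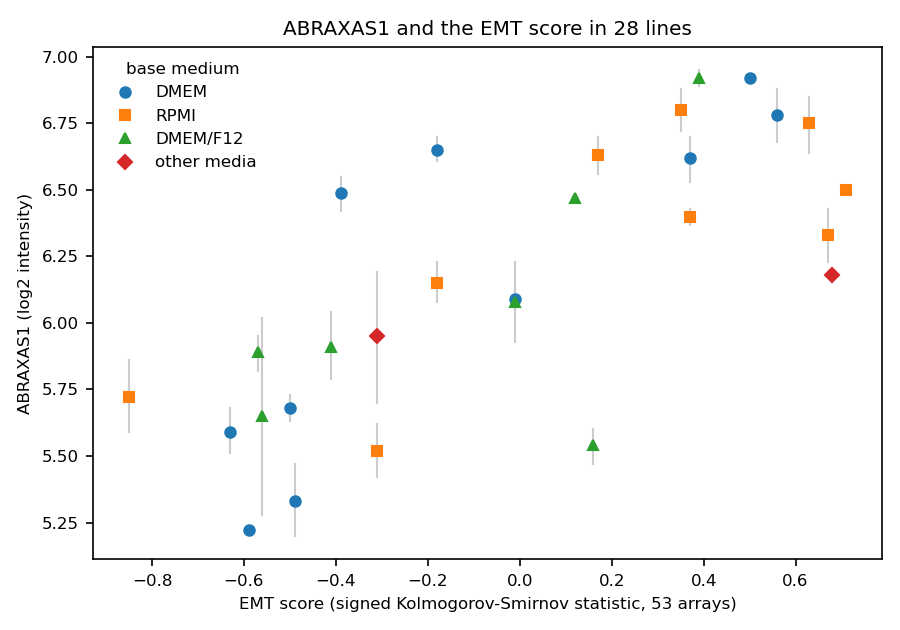
ABRAXAS1 (log2 intensity) against the EMT score of each line, with 3 arrays left out; symbols give the base medium, and grey lines join the arrays of a line. The value rises from 5.22 in OVCA420 (1 array) to 6.92 in SKOV3 and OV17R. OV7 is low for its score. The score changed sign between the arrays of OV7 (0.53 and -0.12), FUOV1 (0.38 and -0.33) and OAW42 (0.18 and -0.15). It also did so in HEYC2 and OV56, which each have 1 array left out here. These array scores were computed before the 3 arrays were left out.

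The other 34 genes did not pass the test for the EMT score. The highest were RAD51C (rho 0.412, adjusted p = 0.340 by permutation, 53 arrays), RAD54B (0.390) and FANCC (0.368), and with 56 arrays WRN reached 0.490 against 0.344 with 53. FANCF had the lowest rho, -0.328 with 53 arrays and -0.229 with 56, followed by MRE11 (-0.091 with 53 arrays and -0.029 with 56). ATR and FANCG were at -0.053 and -0.028 with 56 arrays. BRCA1 was at 0.170 (jackknife SE 0.226), and its adjusted p was 0.791 by permutation. The median rho of the 35 genes was 0.190 with 53 arrays and 0.172 with 56, beside 0.033 and 0.012 over all genes, and 29 of 35 were above 0 with 53 arrays. In simulated data the permutation test called 8% of genes with a true correlation of 0.5 and 50% with 0.7, so weaker relations could be missed.

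Since many recombination genes are made in S phase, the same relation was computed with the mitosis score, the mean of 22 centred mitosis genes. With 56 arrays FANCB (rho 0.693), FANCM (0.686), BLM (0.621) and BRCA1 (0.605) passed, with adjusted p-values of 0.0227, 0.0263, 0.0412 and 0.0488 by permutation, beside 1.31% of all genes that rose and 0.539% that fell. EXO1 (0.587) and FANCI (0.562) came next, and FANCE (-0.057), FANCG (0.042) and XRCC3 (0.084) were lowest. With 53 arrays no gene passed the permutation test, neither among the 35 nor among all 18377. The values were then 0.635 for FANCM (adjusted p = 0.125), 0.511 for FANCB, 0.331 for BLM and 0.398 for BRCA1, and 5 of 35 genes (BRCA1, XRCC3, FANCB, FANCM and EXO1), all with a rho above 0, had an unadjusted permutation p under 0.05, beside 5.58% of all genes that rose and 3.19% that fell. By limma slope with 53 arrays FANCM still rose (slope 1.287, SE 0.278, adjusted p = 0.0464), the one gene of the 35 to pass, beside 0.163% of all genes that rose and 0.0218% that fell. The median rho of the 35 genes fell from 0.413 to 0.234, beside -0.091 and 0.005 over all genes. The 3 arrays were low both for the score and for the pathway.

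**Figure D5:**
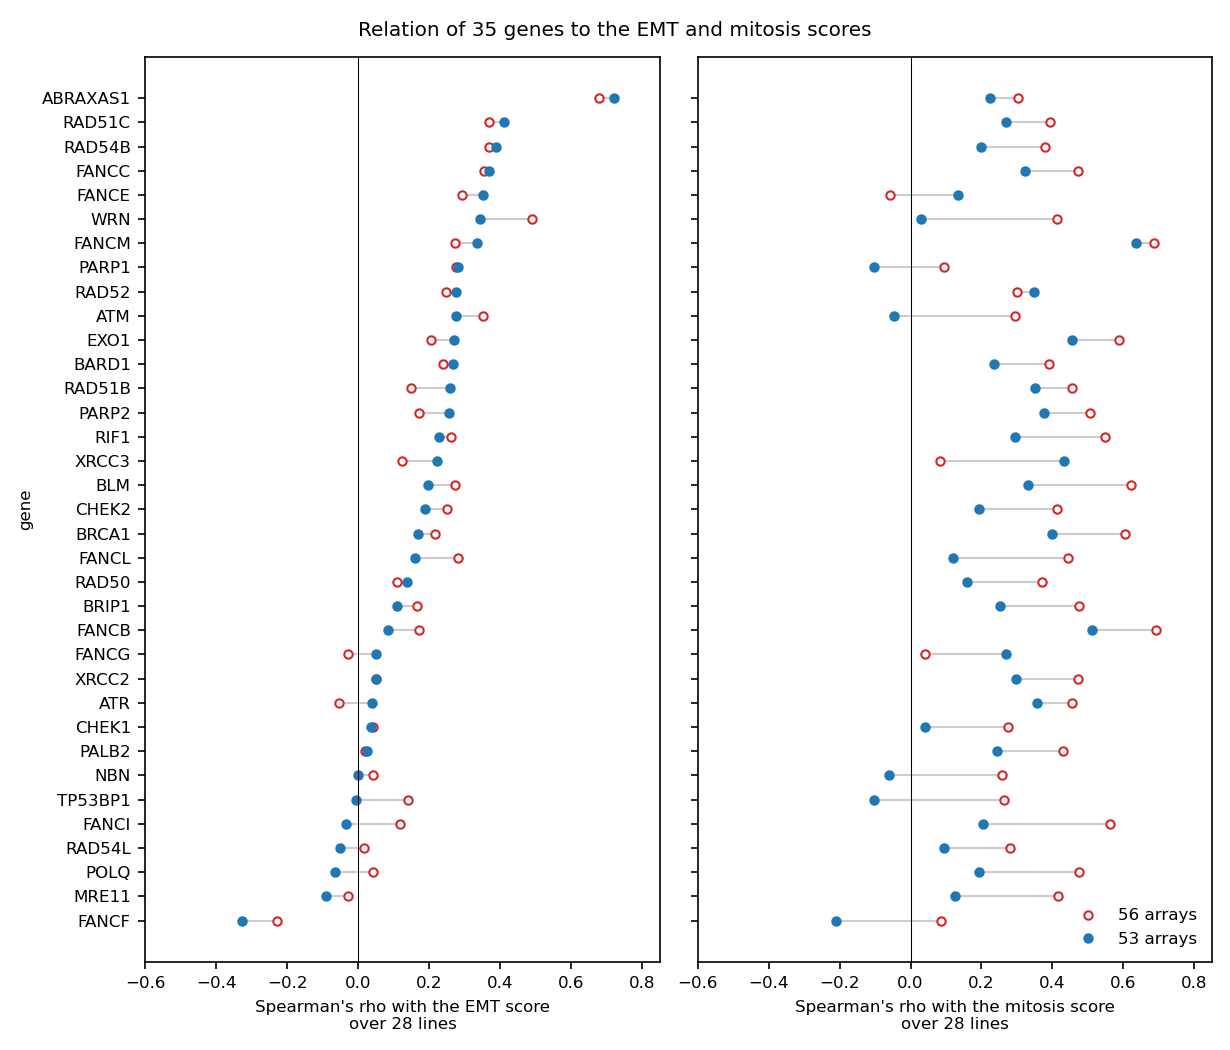
Spearman's rho over 28 lines of the 35 genes with the EMT score (left) and the mitosis score (right), with 56 arrays (open red) and with 53 (filled blue). ABRAXAS1 stands alone at 0.679 and 0.722 on the left, and most points on the right move towards 0 when the 3 arrays are left out.

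Base medium made no detectable difference. By the limma F-test over the DMEM, RPMI and DMEM/F12 lines, 0 of 35 genes passed at an adjusted p under 0.05, beside 0% of all genes, with 56 arrays and with 53. At an unadjusted p under 0.05 the counts were 0 (1.96% of all genes) and, with 53 arrays, 1 (4.16%), which was FANCM.

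The genes did not move as a block once the 3 arrays were set aside. The median rho over their 595 pairs was 0.262 with 56 arrays and 0.095 with 53, and pairs at 0.5 or more numbered 75 and 20. The closest pairs with 53 arrays were FANCI with BLM (0.727), BRCA1 with BRIP1 (0.634), XRCC2 with EXO1 (0.614) and ATR with POLQ (0.600). The lowest was RAD52 with CHEK1 (-0.544). All share the arrays and lines, so these are descriptions over 28 lines. Pairs drawn from all genes were not computed for comparison.

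Several of the closest pairs lie on the same chromosome. In the RefSeq annotation (GRCh38.p14), 29 of the 595 pairs lie on the same chromosome, and 24.1% of these had a rho of 0.5 or more, against 2.3% of the other pairs. The median rho was 0.327 and 0.083. The same split was not computed over pairs of all genes. FANCI and BLM are both on chromosome 15, BRCA1 and BRIP1 on 17, and ATR and POLQ on 3. XRCC2 and EXO1 lie on different chromosomes. For each gene the 20 most similar of 18328 placed genes were then listed (53 arrays). In 13 of the 35 genes at least 10 of these 20 were on the same chromosome, beside 10.2% of all genes, and the median over all genes was 2.

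Neighbouring genes were among the closest for several members. RAD52 was most like CCDC77 (0.887) and KDM5A (0.777), with 4 and 5 measured genes between. OSGIN2, the next measured gene on chromosome 8, and RIPK2, with 1 measured gene between, had a rho with NBN of 0.839 and 0.854. PARP2 was followed by OSGEP (0.752), APEX1 (0.782) and PIP4P1 (0.781), with 1, 2 and 3 measured genes between, but the median rho of PARP2 with its 20 nearest genes was -0.031. The 5 genes most like BRCA1 were all on chromosome 17, PSMB3 (0.758), CDK12 (0.756), KLHL11 (0.752), CWC25 (0.739) and PIP4K2B (0.730), between 47 and 139 measured genes away. Of the 20 most like ATR and FANCG, 15 each were on chromosomes 3 and 9. FANCF, ABRAXAS1, WRN and RAD51C had 1, 1, 1 and 0 of 20 on their own chromosome, although the median rho of RAD51C with its 20 nearest genes was 0.313. ABRAXAS1 was most like CACNG3 (0.750), ELP5 (0.704) and FSCN1 (0.691), and its median rho with the 20 nearest genes was 0.065, against 0.129 over all genes and 0.400 for PARP1. Copy number was not analysed here.

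Of 54 further genes of these pathways, 50 were measured. Of these, 40 differed among lines with 56 arrays and 50 with 53 (limma F-test). None passed for the EMT score. ERCC4, the crosslink nuclease, came closest with 53 arrays (rho 0.596, adjusted p = 0.0741 by permutation), and TOP3A, RPA2, RPA1 and RMI1 lay between 0.505 and 0.516. For the mitosis score PRKDC (0.775), XRCC6 (0.742), GEN1 (0.676) and RAD51AP1 (0.602) rose with 56 arrays, and none of the 50 fell. Over all genes 1.31% rose and 0.539% fell. With 53 arrays none of the 50 passed the permutation test, and PRKDC and XRCC6, both of end joining, were at 0.689 and 0.671. XRCC6 passed by limma slope (adjusted p = 0.0464), the one gene of the 50 to do so, beside 0.163% of all genes that rose and 0.0218% that fell. RMI1 and RAD17 were called low in OVCA420 by limma on line means with 56 arrays (-2.41 and -2.23), but not with 53 (-0.70 and -1.20).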

How the data were processed

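Expression in 28 ovarian cancer cell lines was measured in duplicate on 56 Human Gene ST arrays. The authors deposited log2 intensities, which the submitters' processing notes credit to RMA and affy 1.42.3; filters and array batches are not given in the sources used here. The number of arrays limits the precision.

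Probe sets annotated to 1 gene were kept (19310 of 28869), the one with the highest mean was taken for each of 18377 genes, and the arrays of a line were averaged. Columns were matched to lines by title, and a misspelt title of JHOS4 was read as that line. Differences among lines, single lines against the other 27 and base media were tested with limma 3.58.1 (R 4.3.3, statmod 1.5.0; trend and robust settings). Low and high calls needed at least 1 log2 unit and an adjusted p (over all pairs of gene and line) under 0.05. Relations to the scores were tested by Spearman's rho with 100000 permutations, adjusted by Benjamini-Hochberg over 18377 genes. The EMT score is rebuilt from 382 of the 420 signature genes that the study lists, centred on their medians over lines, since its formula is not given in full. Scripts were tested on simulated data. Python 3.11.15 was used with scipy 1.17.1, numpy 2.4.6, matplotlib 3.10.9 and pandas 2.3.3.

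The members, lists and tests were chosen with earlier results of these data known. Members given full values were BRCA1, the 8 with the largest SD, the largest single-line calls, and the highest and lowest by rho with each score; those named for single-line lows and for position were chosen after their values had been seen. Other probe set rules, filters, normalizations, scores, array sets and adjustments were tried. Methylation, chromatin and knockdown experiments of the study were not analysed here.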

Additional observations from a re-analysis of the deposited data

Results flagged for a closer look

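Within each base medium (10 DMEM, 9 RPMI and 7 DMEM/F12 lines), the gap between the most extreme line and its nearest neighbour was set against the whole range of the group, for 35 genes and 105 groups in all. Chance flags about 1 in 20 groups, or 5.25 here, and 6 were found with 53 arrays. BRIP1 in OVCAR2 (6.23, next RPMI line 7.41) and FANCI in OVCAR3 (7.95, next 9.09) were low among the RPMI lines. BARD1 in OAW42 was low among the DMEM lines (7.04, next 7.97). WRN in OV7 was low among the DMEM/F12 lines (6.70, next 7.09), where FANCE in JHOS4 (7.69, next 7.23) and POLQ in FUOV1 (8.17, next 7.58) were high. With 56 arrays 8 were found, of which 6 lay in HEYC2, OV56 or OVCA420.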

How the results depend on the processing

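The count of genes that differ among lines was 22 of 35, and it moved from 20 to 35 when 1 array was left out at a time, with 34 without HEYC2 replicate 2 and 35 without OVCA420 replicate 2; it was 35 without the 3 arrays. With replicate number as a block 21 differed. For the F-tests with 1 array left out or with the block, the share of all genes was not computed. By the fit of 56 arrays with the block 39 lows and 12 highs were called, beside 3.46% and 3.78% of all pairs of gene and line. Replicate numbers did not shift the arrays of all lines alike. Over 300 pairs of the 25 lines other than HEYC2, OV56 and OVCA420, the differences between replicates correlated between -0.32 and 0.38 (median 0.00). Of these pairs, 61 were over 0.1 and 70 under -0.1. Whether arrays of some lines were paired was not tested. An F-test with 1 array per line could not be run.

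For single lines, the counts of 0 lows and 0 highs became 18 lows without replicate 1 (0.415% of all pairs of gene and line were low), and 24 lows and 1 high without replicate 2 (0.529% and 0.983%). HEY and HEYC2 merged gave 1 low (0.113%), adjustment within each line 12 (0.352%), and the fit of 56 arrays 40 lows, 28 of them in OVCA420, OV56 and HEYC2, and 12 highs. Settings chosen after the data were seen left out the 3 arrays, and among them the fit of 53 arrays gave 29 lows and 16 highs.

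For the EMT score the count of 1 became 0 without the 2 lines farthest from the median score. For the mitosis score the count of 4 became 28 by Pearson's r (16.8% of all genes rose and 28.8% fell) and by limma slope (17.2% and 29.6%), 2 when centred on the base medium and 1 by quantile normalization. It became 0 without the 2 farthest lines, with HEY and HEYC2 merged, and in each setting without the 3 arrays other than the limma slope, added after the data were seen, which gave 1 (FANCM); it ran from 0 to 4 without replicate 1 or 2. The cause was not tested. For the settings centred on the base medium, by quantile normalization and without a replicate, the share over all genes was not computed. No called rho changed sign, and counts by base medium stayed at 0.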

Other observations

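HEY and HEYC2, lines with a shared name, were close in some of these genes and not in others. ATR read 8.88 and 8.78 in HEY and 8.81 on the array left of HEYC2, and RAD51C read 8.65 and 8.60 against 8.24. XRCC2, by contrast, read 7.23 and 6.79 in HEY and 8.36 in HEYC2, where 1 array gives no spread. FANCC had a rho with the EMT score of 0.967 over 9 RPMI lines and of -0.607 over 7 DMEM/F12 lines (53 arrays); no test of these values against each other was run.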
